A study of Mus musculus with 11 samples.

Results

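The unfolded protein response and the Atf4 branch of the stress response were represented by 34 genes, chosen by name for their roles in endoplasmic reticulum (ER) protein folding, ER-associated degradation, Atf4 signalling and amino acid supply, and read from a count table of 48709 mouse genes. All 34 were among the 14757 genes that passed the filter on low counts. Aortic arches taken at postnatal day 11 had been profiled by bulk RNA-seq in 11 mice: 6 carried 1 Tgfbr2 allele with the G357W substitution (Tgfbr2-G357W/+, Het 1 to 6), which models Loeys-Dietz syndrome type II, and 5 were wild-type littermates (Tgfbr2-+/+, WT 1 to 5). Tgfbr2 is the type II TGF-beta receptor, and the human syndrome brings aortic aneurysm with other connective tissue defects. The labels list no treatment and no Cre or transgene, and neither the strain nor the sex of the animals. Each library was taken as 1 mouse, since the series counts as many mice as libraries.

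Proteins that enter the ER are folded by chaperones, oxidised by disulfide isomerases and, when they fail to fold, returned to the cytosol for degradation. When unfolded protein builds up, the sensor kinase Ire1 (Ern1) splices the Xbp1 transcript, Atf6 is cut to release a transcription factor, and the kinase Perk (Eif2ak3) phosphorylates the initiation factor eIF2, which lowers general translation but raises translation of the Atf4 transcript. Atf4 also answers to amino acid shortage and other stresses, and its known targets include genes for serine, glycine and asparagine synthesis and amino acid import. Cells that secrete much matrix, such as smooth muscle cells of the growing aorta, depend on this machinery. Counts per gene give the sum over transcript forms, so they show neither Xbp1 splicing nor the translation of Atf4.

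Short promoter elements have been described for these branches, and they are shown here because the genes were compared by branch. The ER stress response element, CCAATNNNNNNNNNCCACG, is bound by the cleaved form of Atf6 with the factor NF-Y. Promoter windows of 300 bases, 250 before and 50 after a start site, were taken from RefSeq (GRCm38.p6), where 30 of the 34 genes had an entry, with 32 windows between them; Slc7a5, Manf, Hyou1 and Atf6 had none. Searched on both strands, the element lay in windows of 7 of these 30 genes, against 0.119% of 32851 mouse promoter windows. It was first described in promoters of ER chaperones, so its presence in them is no independent finding. Each site is given 5′ to 3′ on the strand named, with 5 flanking bases and the fixed letters of the element in capitals:
Calr, chr8:84847070-84847098, plus strand: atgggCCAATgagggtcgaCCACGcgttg
Canx, chr11:50325795-50325823, minus strand: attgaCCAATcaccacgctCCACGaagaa
Creld2, chr15:88819515-88819543, minus strand: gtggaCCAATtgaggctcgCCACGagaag
Dnajc3, chr14:118937822-118937850, plus strand: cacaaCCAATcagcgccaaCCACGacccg
Hsp90b1, chr10:86705633-86705661, minus strand: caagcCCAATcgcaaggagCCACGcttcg
Hsp90b1, chr10:86705528-86705556, plus strand: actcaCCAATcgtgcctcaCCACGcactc
Hspa5, chr2:34772020-34772048, plus strand: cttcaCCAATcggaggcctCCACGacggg
Pdia6, chr12:17266486-17266514, plus strand: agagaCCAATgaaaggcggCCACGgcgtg

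Of these 7 genes 6 belong to the chaperone group and Pdia6 to the disulfide isomerases, and Hsp90b1 held the element at 2 places. The element TGATGNAA, a composite site for C/EBP and ATF factors through which Atf4 acts, lay in windows of 5 of the 30 genes and in 3.97% of all windows. None of those genes held the ER stress response element in the exact letters and spacing searched. Other forms of the elements were not searched, so these sites do not assign a gene to a single branch. Its sites, with the fixed letters in capitals, were in amino acid genes (Asns, Slc7a11), in stress effectors (Chac1, Trib3) and in Herpud1, and that of Trib3 lies just after the start site:
Asns, chr6:7693220-7693237, minus strand: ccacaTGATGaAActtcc
Chac1, chr2:119351044-119351061, minus strand: aggagTGATGcAAcggca
Herpud1, chr8:94386312-94386329, minus strand: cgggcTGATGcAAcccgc
Slc7a11, chr3:50443667-50443684, minus strand: gtggcTGATGcAAacctg
Slc7a11, chr3:50443648-50443665, plus strand: catgaTGATGcAAattct
Trib3, chr2:152344034-152344051, plus strand: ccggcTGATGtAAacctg

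A further element, TGACGTGG, described for spliced Xbp1 and Atf6, was in 0 of the 32 windows and in 0.676% of all windows. The 250 bases before the start site are printed for Hspa5, the gene most used to report ER stress, and for Atf4 and Psat1, the members that passed the test. Psat1 has 2 start sites in RefSeq, and the stretch before the one farther upstream is given. The annotated spans of Hspa5 and Psat1, given below, begin upstream of these start sites. That of Psat1 begins outside both windows, and the stretch before it was not searched. In the Hspa5 stretch the capitals mark the ER stress response element, 65 bases before the start site. None of the 3 elements was found in the windows of Atf4 or Psat1, so their stretches hold no capitals:
Hspa5, chr2:34771840-34772089, plus strand: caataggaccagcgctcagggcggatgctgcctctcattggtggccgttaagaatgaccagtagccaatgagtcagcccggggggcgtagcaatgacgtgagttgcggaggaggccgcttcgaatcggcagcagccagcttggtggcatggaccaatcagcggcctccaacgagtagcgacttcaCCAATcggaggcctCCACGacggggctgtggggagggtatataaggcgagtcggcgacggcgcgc
Atf4, chr15:80254934-80255183, plus strand: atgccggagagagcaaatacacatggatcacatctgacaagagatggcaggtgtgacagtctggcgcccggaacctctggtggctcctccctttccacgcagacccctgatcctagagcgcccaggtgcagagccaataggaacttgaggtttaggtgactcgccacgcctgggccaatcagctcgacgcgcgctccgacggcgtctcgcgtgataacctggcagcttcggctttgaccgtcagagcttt
Psat1, chr19:15925060-15925309, minus strand: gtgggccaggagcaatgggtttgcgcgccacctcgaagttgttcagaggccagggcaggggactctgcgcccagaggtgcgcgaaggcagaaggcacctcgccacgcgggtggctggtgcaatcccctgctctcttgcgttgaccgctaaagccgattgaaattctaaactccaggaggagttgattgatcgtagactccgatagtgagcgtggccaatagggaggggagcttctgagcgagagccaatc

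The libraries held 13113467 to 19327935 counts each, and a gene with 0 counts could be present at up to 0.155 to 0.229 CPM, the level of 3 counts (CPM is the count scaled to the size of its library). Intervals and limits of this kind cover counting error only. The labelled cell types are vascular smooth muscle (VSMC) and endothelium (EC). The 7 smooth muscle markers summed to 30441 to 41469 CPM in Het and 33580 to 38089 CPM in WT, and the 7 endothelial markers to 368 to 629 CPM in Het and 410 to 540 CPM in WT. Acta2 made up most of the smooth muscle sum, and of its 7 markers Cnn1, calponin 1, fell, with 1469 to 2168 CPM in Het and 1787 to 3093 CPM in WT (log2 fold change -0.51 ± 0.13, adjusted p = 0.0346, edgeR). The 7 adventitial fibroblast markers summed to 1601 to 2492 CPM in Het and 1605 to 2299.6 CPM in WT, and of them Pi16 fell (-0.62 ± 0.10, adjusted p = 0.00194). The 7 macrophage markers summed to 74.7 to 242 CPM in Het and 61.4 to 181 CPM in WT; 6 of them were higher in Het by log2 fold change (median 0.34), and none passed in edgeR (1 at an unadjusted p under 0.05). Jchain, Mzb1 and Pou2af1, markers of the antibody-secreting cells that are rich in ER chaperones, had at most 11, 10 and 5 counts in any library. The 5 measured skeletal and cardiac muscle markers summed to 19.5 to 35.5 CPM in Het and 37.3 to 62.2 CPM in WT. Of these 5, 1 was called lower in Het by edgeR. The 3 measured chondrocyte markers summed to 7.09 to 10.5 CPM in Het and 12.0 to 18.9 CPM in WT, and 1 was called lower. Matn1 was at 0 counts in every library and Col2a1 in 6. The 6 adipocyte markers summed to 326 to 2102 CPM in Het and 763 to 2799 CPM in WT, and none passed in edgeR. WT 5 held 2799 CPM, against 763 to 984 CPM in the other WT libraries. Het 4 and Het 5 were the lowest, at 397 and 326 CPM. The 2 measured T cell and thymus markers summed to 0.0721 to 10.1 CPM in Het and 0.154 to 3.81 CPM in WT. The part of these differences in the results was not tested. Het 3 to 6 carried the Y-linked transcript Ddx3y, at 88.2 to 108 CPM, and at most 0.75 CPM of Xist, while Het 1, Het 2 and every WT library had 58.8 to 80.1 CPM of Xist and 0 counts of Ddx3y. No WT library therefore stands beside Het 3 to 6, so members and pathway genes that passed are also given in the 7 Xist-positive libraries. In those libraries no smooth muscle, adventitial fibroblast, skeletal and cardiac muscle or chondrocyte marker passed in edgeR. That fit compared Het 1 and Het 2 with 5 WT libraries and called 0.218% of its 15600 tested genes. At an unadjusted p under 0.05, 1 adventitial fibroblast, 1 skeletal and cardiac muscle and 1 chondrocyte marker were lower there. No marker of these lists was higher at that level.

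Per length of annotated exon, ER folding genes and Herpud1 were the most abundant members, and Slc7a11, Sesn2, Eif2ak3 and Ern1 the least. In Het libraries Hsp90b1, the ER form of Hsp90, led with a mean of 171 CPM per kb, against 150 in WT. Herpud1, a scaffold of the ER-associated ubiquitin ligase Hrd1, had 133 CPM per kb in Het and 173 in WT, where it was the highest member. Pdia4 (158 in Het, 156 in WT), Pdia3 (147 in Het, 162 in WT) and Hspa5 (126 in Het, 152 in WT) were close to them on this scale. Atf4 stood at 88.6 CPM per kb in Het and 67.9 in WT. At the low end were Slc7a11 (0.725 in Het, 0.691 in WT), Ern1 (0.705 in Het, 0.851 in WT) and Sesn2 (0.743 in Het, 0.697 in WT).

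**Figure D1:**
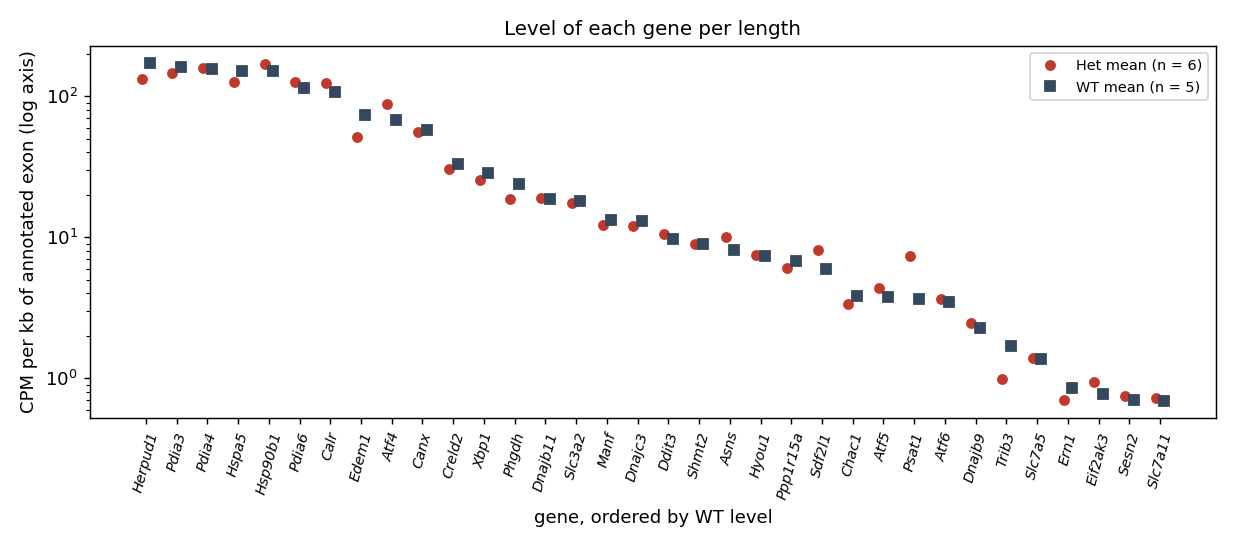
Mean level of each of the 34 genes, in CPM per kb of annotated exon on a log axis, for Het (circles, n = 6) and WT (squares, n = 5), ordered by the WT mean. The genes span from about 0.7 to about 170 CPM per kb, and the circle and square of most genes nearly coincide, while Psat1 and Trib3 stand visibly apart.

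The comparison of Het with WT asks whether genes of these stress branches differ in the young arch when 1 Tgfbr2 allele is mutant. Of the 34 genes, 2 passed an adjusted p of 0.05 in edgeR's quasi-likelihood test, Psat1 and Atf4, and both rose. No member fell past the threshold in edgeR, DESeq2 or limma voom, and 32 did not pass. At an unadjusted p under 0.05 there were 5 higher and 5 lower members in edgeR, 5 and 4 in DESeq2, and 4 and 4 in limma voom. The share called, 5.88%, is set against 5.03% of all 14757 tested genes, with 2.65% called higher and 2.38% called lower in Het. The share at an unadjusted p under 0.05 was 29.4% (10 of 34), against 19.4% of all tested genes. The log2 fold changes of Het over WT ran from -0.76 to 1.01 with a median of 0.01, against a median of -0.0046 over all tested genes; 18 were positive and 16 negative. The median size of a member's log2 fold change, sign ignored, was 0.154, against 0.183 over all tested genes, and the median standard error (SE) was 0.126, against 0.169.

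The summed level of the 34 genes was 4492 to 4910 CPM in Het and 4271 to 5473 CPM in WT. WT 1 and WT 2, at 5473 and 5172 CPM, were the highest of all 11 libraries, and the other 3 WT libraries, at 4271 to 4731 CPM, overlapped Het. In bulk RNA, fewer cells of a type and less RNA per cell cannot be told apart, and this holds for every level below.

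**Figure D2:**
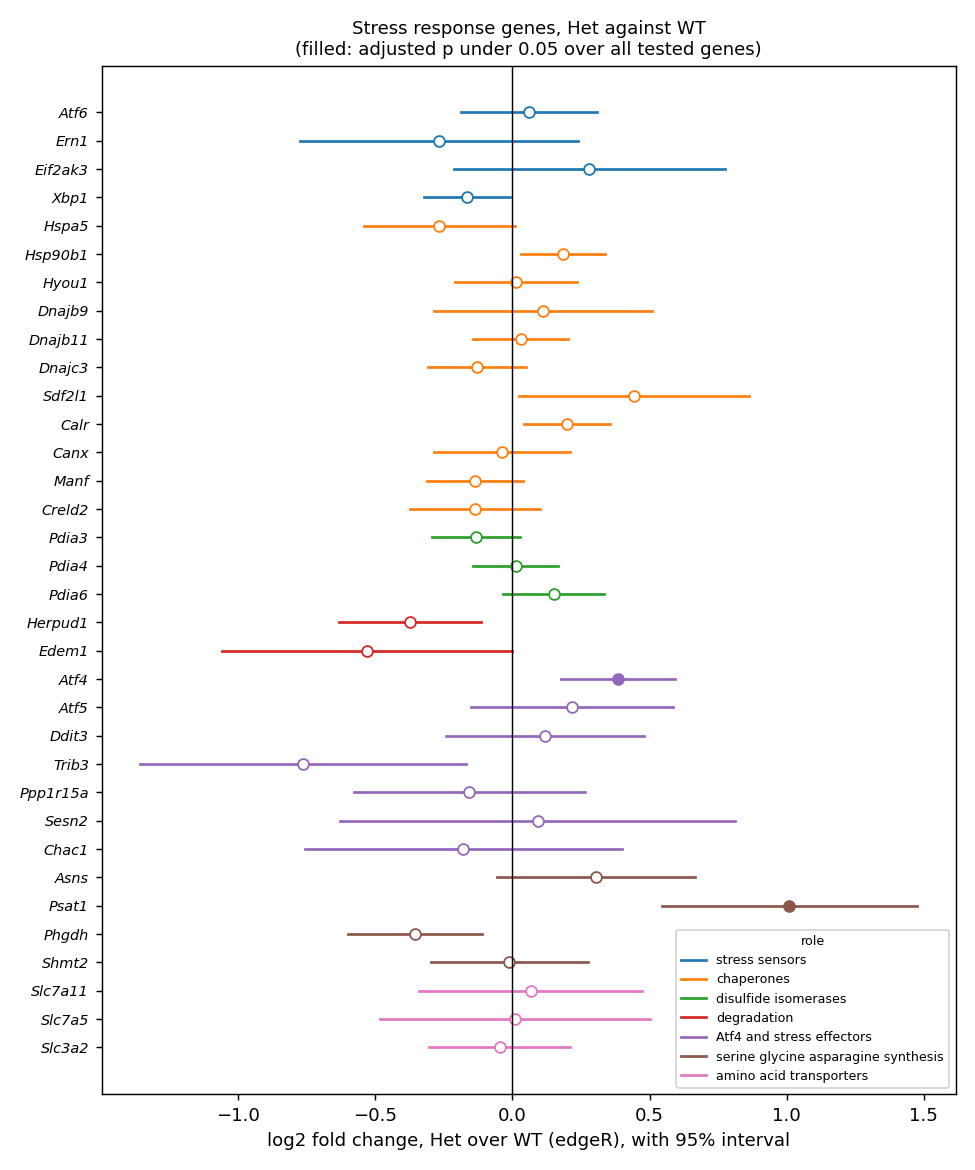
Log2 fold change of Het over WT for each of the 34 genes from edgeR, with its 95% interval, grouped and coloured by role; filled points passed an adjusted p of 0.05 over all tested genes. Only Psat1, at 1.01, and Atf4, at 0.38, are filled, and most intervals of the sensors, chaperones and transporters cross 0.

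Psat1 had the largest fold change of the members. It encodes phosphoserine aminotransferase, the middle step of serine synthesis from a glycolytic intermediate (ENSMUSG00000024640, chromosome 19, 15904678 to 15947337 of GRCm38). Het libraries lay between 18.9 and 40.4 CPM with a median of 32.4 CPM, and WT 1 to 5 had 17.2, 16.6, 12.99, 22.6 and 8.82 CPM. Het 2 to 6 exceeded every WT library, and Het 1, the lowest Het library at 18.9 CPM, fell below WT 4. The means were 31.5 ± 7.27 CPM in Het (SD, n = 6) and 15.7 ± 5.14 CPM in WT (SD, n = 5). The log2 fold change was 1.01 ± 0.22 (SE; adjusted p = 0.0136, edgeR), which is 2.02-fold with a 95% interval of 1.46 to 2.78. Its call held without any single library, at 0.86 to 1.18, but was lost without WT 1 and WT 2 together, at 1.09 ± 0.28 (adjusted p = 0.0673). Among the Xist-positive libraries Het 1 and Het 2 had 18.9 and 29.6 CPM, and the log2 fold change was 0.64 ± 0.30 (adjusted p = 0.573); with a score of sex-linked genes as a covariate it was 0.63 ± 0.26 (adjusted p = 0.393).

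The other genes of serine, glycine and asparagine synthesis did not pass the test. Phgdh, the dehydrogenase just before it in the pathway, ran between 36.9 and 52.0 CPM in Het with a median of 48.1 CPM, and at 64.5, 59.96, 59.2, 66.4 and 45.0 CPM in WT 1 to 5. Het lay below WT except for WT 5, which was among the Het values, and the log2 fold change was -0.36 ± 0.12 (adjusted p = 0.0908). Without WT 5 it passed, at -0.44 (adjusted p = 0.0260). Phgdh has 8 near-identical copies in the annotation, of which Gm9347 held 1025 and Gm7901 held 756 counts over all libraries against 8572 for Phgdh, so its level is uncertain. Psph, the phosphatase that completes serine synthesis and no member of the 34, averaged 54.8 ± 5.81 CPM in Het (SD, n = 6) and 60.4 ± 8.39 CPM in WT (SD, n = 5), and its log2 fold change was -0.14 ± 0.10 (adjusted p = 0.508); it was chosen after its values were seen. Asns, which makes asparagine, had 23.4 to 32.9 CPM in Het and 17.4 to 32.4 CPM in WT. All 6 Het libraries exceeded the WT median of 18.1 CPM for Asns, but WT 5 stood with the highest Het libraries (log2 fold change 0.31 ± 0.17, adjusted p = 0.350). Shmt2, which turns serine into glycine in mitochondria, had 24.1 to 33.3 CPM in Het and 22.4 to 35.4 CPM in WT, and differed by -0.01 ± 0.13 on the log2 scale (adjusted p = 0.980). Of these 4 members 1 rose in edgeR (25%, against 5.03% of all tested genes) and none fell. At an unadjusted p under 0.05, 1 was lower, and DESeq2 gave the same single call.

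Atf4, the transcription factor that is translated when eIF2 is phosphorylated, was the other member that rose (ENSMUSG00000042406, chromosome 15, 80255184 to 80257541 of GRCm38). Het libraries ran from 186 to 232 CPM with a median of 210 CPM, and WT 1 to 5 had 145, 128, 163, 183 and 181 CPM. Every Het library exceeded every WT library, though Het 1, at 186 CPM, was close to WT 4 and WT 5. This made Atf4 and Calr the 2 members of 34 whose groups did not overlap, 5.88%, against 4.61% of all tested genes. The means were 209 ± 15.5 CPM in Het (SD, n = 6) and 160 ± 23.5 CPM in WT (SD, n = 5), a log2 fold change of 0.38 ± 0.10 (SE; adjusted p = 0.0330, edgeR) or 1.31-fold with a 95% interval of 1.13 to 1.51. The call was lost without any 1 of WT 1, WT 2, WT 3 or Het 2 to 6, with adjusted p of 0.0538 to 0.0798. In the Xist-positive libraries the log2 fold change was 0.27 ± 0.15 (adjusted p = 0.626), and without WT 1 and WT 2 it was 0.25 ± 0.08 (adjusted p = 0.145).

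**Figure D3:**
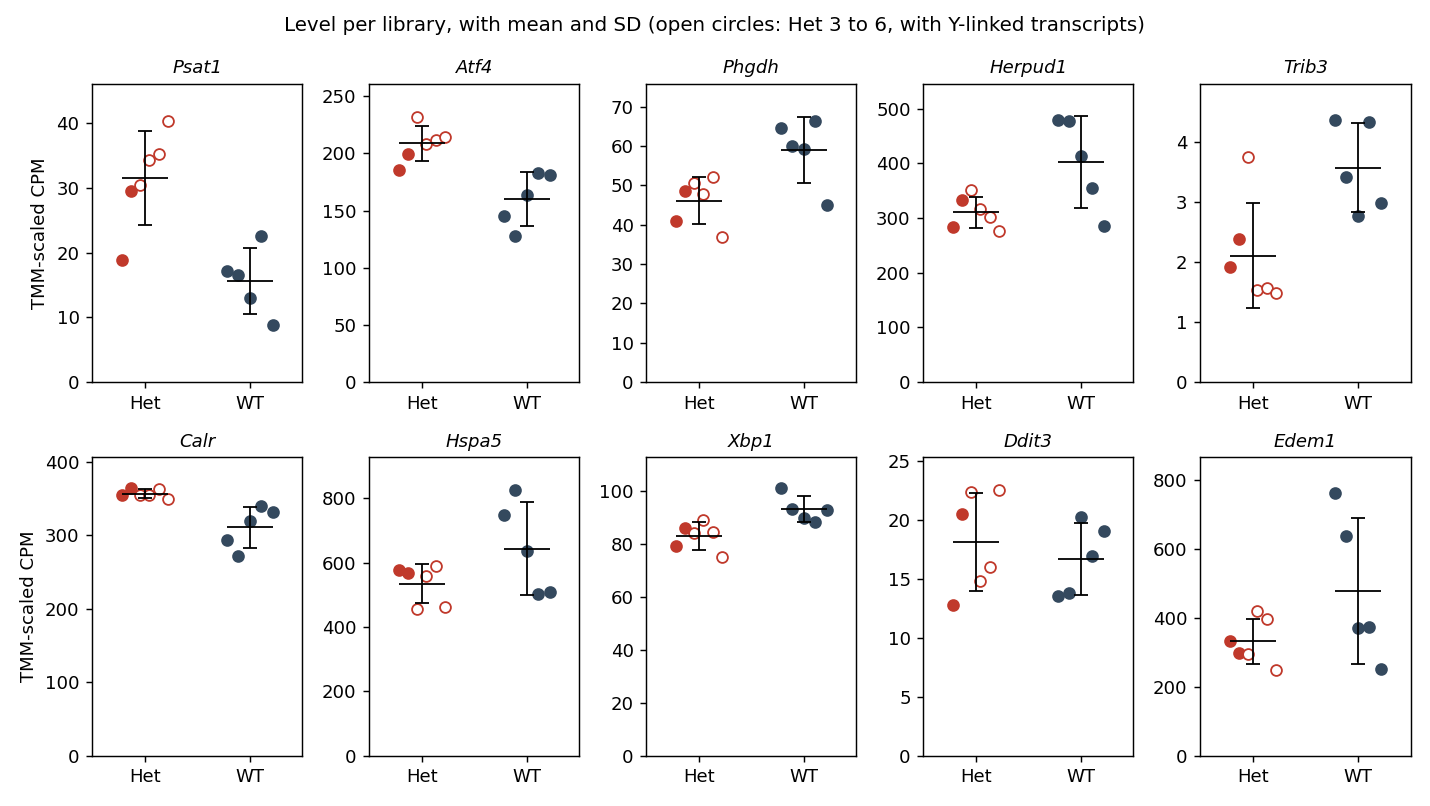
Level in every library, in CPM scaled by TMM factors, of Psat1, Atf4, the 4 further members with the smallest p, the preset genes Hspa5, Xbp1 and Ddit3, and Edem1; lines and bars are the mean and SD of Het (n = 6) and WT (n = 5), and open circles are Het 3 to 6, which carry Y-linked transcripts. For Atf4 and Calr all Het points lie above all WT points, while the WT points of Hspa5 and Edem1 are spread more widely than the Het points.

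The effectors controlled by Atf4 went in different directions, and none of them passed the test. Ddit3, which encodes the pro-apoptotic factor Chop and is a standard read-out of prolonged stress, ran from 12.8 to 22.5 CPM in Het with a median of 18.3 CPM, and at 13.5, 13.8, 20.3, 16.9 and 19.1 CPM in WT 1 to 5. The groups overlapped over most of their range (log2 fold change 0.12 ± 0.17, adjusted p = 0.767), and the 95% interval of the fold, 0.846 to 1.40, covers changes in either direction. Ddit3 shares 68 exonic bases with Mars on the other strand, and the libraries do not mark strand. Trib3, a pseudokinase induced through Atf4 and Chop, had 1.48 to 3.75 CPM in Het with a median of 1.75 CPM, and 4.37, 3.42, 2.77, 4.34 and 2.99 CPM in WT 1 to 5. Of the 6 Het libraries 5 lay below every WT library, and Het 3, at 3.75 CPM, lay among them (log2 fold change -0.76 ± 0.28, adjusted p = 0.136). Without Het 3 it passed, at -1.005 (adjusted p = 0.0358). Trib3 rested on 20 to 66 counts per library.

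The remaining effectors were within the spread of the libraries. Atf5, a factor related to Atf4, had 7.91 to 10.1 CPM in Het and 5.54 to 9.67 CPM in WT (log2 fold change 0.22 ± 0.17). Chac1, which degrades glutathione, had 4.15 to 7.27 CPM in Het and 2.69 to 9.67 CPM in WT (-0.18 ± 0.27). WT 1 and WT 2 were its highest libraries, at 9.67 and 8.64 CPM, and without them its sign turned, to 0.35 ± 0.25 (adjusted p = 0.543). Ppp1r15a, the phosphatase subunit that reverses eIF2 phosphorylation, had 13.8 to 29.7 CPM in Het and 14.96 to 23.8 CPM in WT (-0.16 ± 0.20), and Het 3 alone gave the highest value. Sesn2, a sensor of leucine and stress, had 1.33 to 4.11 CPM in Het and 1.81 to 3.60 CPM in WT (0.09 ± 0.34). Het 3 was among the highest Het libraries for Trib3, Ppp1r15a, Chac1, Sesn2, Ddit3 and Atf4. Among the 7 genes of this group, Atf4 included, the median log2 fold change was 0.09. Atf4 was the 1 that rose in edgeR (14.3%, against 5.03% of all tested genes), in DESeq2 and in limma voom, and none fell. At an unadjusted p under 0.05, 1 was lower in each.

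Amino acid transporters, known targets of Atf4, showed no call. Slc7a11, the cystine importer, had 8.18 to 12.8 CPM in Het and 6.70 to 12.7 CPM in WT; a stretch of 373 bases of its longest transcript is near-identical to Tuba1a and other tubulin genes, so its count is uncertain. Slc7a5, which imports large neutral amino acids, had 4.11 to 6.95 CPM in Het and 3.23 to 7.48 CPM in WT. Slc3a2, the heavy chain with which both pair, had 52.8 to 75.6 CPM in Het and 50.6 to 77.5 CPM in WT. The Het range of Slc7a5 and of Slc3a2 lay within the WT range, and the log2 fold changes were 0.07 ± 0.19 for Slc7a11, 0.01 ± 0.23 for Slc7a5 and -0.05 ± 0.12 for Slc3a2. None of the 3 was at an unadjusted p under 0.05 in edgeR, DESeq2 or limma voom.

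None of the 11 ER chaperones and co-chaperones passed the test in edgeR, DESeq2 or limma voom, with 3, 3 and 2 higher and 0 lower at an unadjusted p under 0.05. The 3 in edgeR are 27.3%, against 19.4% of all tested genes. The median log2 fold change of the 11 was 0.01. Hspa5, the Hsp70 of the ER that holds the stress sensors inactive, is the usual first marker of ER stress (ENSMUSG00000026864, chromosome 2, 34771970 to 34777547 of GRCm38). It ran from 454 to 589 CPM in Het with a median of 564 CPM, and at 750, 824, 635, 502 and 508 CPM in WT 1 to 5. WT 1, WT 2 and WT 3 exceeded all Het libraries, and WT 4 and WT 5 lay within the Het range. The means were 535 ± 60.3 CPM in Het (SD, n = 6) and 644 ± 144 CPM in WT (SD, n = 5). The log2 fold change was -0.27 ± 0.13 (adjusted p = 0.273), and the 95% interval of the fold was 0.686 to 1.01. Without WT 1 and WT 2 it was -0.04 ± 0.11 (adjusted p = 0.916).

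Calr, the soluble lectin chaperone of glycoproteins, had 349 to 364 CPM in Het with a median of 355 CPM, and 293, 272, 319, 340 and 332 CPM in WT 1 to 5. All Het libraries exceeded all WT libraries and were closely spaced, with means of 357 ± 5.85 CPM in Het (SD, n = 6) and 311 ± 28.0 CPM in WT (SD, n = 5), but the log2 fold change of 0.20 ± 0.07 did not pass (adjusted p = 0.144). It was 0.11 ± 0.07 without WT 1 and WT 2, its lowest libraries (adjusted p = 0.462). Hsp90b1 had 649 to 738 CPM in Het with a median of 676 CPM, and 602, 574, 577, 654 and 622 CPM in WT 1 to 5. Het exceeded the WT libraries except for WT 4, which stood just above Het 1 and Het 3 (log2 fold change 0.18 ± 0.07, adjusted p = 0.166). Hsp90b1 shares 415 exonic bases with a pseudogene on the other strand. Sdf2l1, a partner of ER J-proteins, had 6.13 to 11.7 CPM in Het with a median of 9.39 CPM, and 6.89, 6.57, 8.16, 6.32 and 5.31 CPM in WT 1 to 5. Het 2, 4, 5 and 6 exceeded all WT libraries, and Het 1 and Het 3 were among them (log2 fold change 0.44 ± 0.20, adjusted p = 0.225).

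The other chaperones differed less. Canx, the membrane-bound relative of Calr, had 223 to 318 CPM in Het and 232 to 356 CPM in WT (log2 fold change -0.04 ± 0.12). The large Hsp70-related Hyou1 (0.01 ± 0.10), the J-protein co-chaperones Dnajb9 (0.11 ± 0.19), Dnajb11 (0.03 ± 0.08) and Dnajc3 (-0.13 ± 0.08), the secreted Hspa5 partner Manf (-0.14 ± 0.08) and the ER stress-induced protein Creld2 (-0.14 ± 0.11) had adjusted p of 0.388 to 0.968. For Manf 5 of 6 Het libraries lay below the lowest WT library, with means of 42.8 CPM in Het and 47.1 CPM in WT. Read against the promoter sites shown above, the 7 genes that hold the ER stress response element had log2 fold changes of -0.27 (Hspa5), -0.14 (Creld2), -0.13 (Dnajc3), -0.04 (Canx), 0.15 (Pdia6), 0.18 (Hsp90b1) and 0.20 (Calr). They thus fell on both sides of 0. The 5 genes with TGATGNAA were likewise divided, at -0.76 (Trib3), -0.37 (Herpud1), -0.18 (Chac1), 0.07 (Slc7a11) and 0.31 (Asns), though Chac1 was at 0.35 and Slc7a11 at -0.19 without WT 1 and WT 2, as Canx was at 0.12. Neither Atf4 nor Psat1, which rose, had any of the searched letters in its window, which says nothing of the factors.

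The disulfide isomerases, which form and shuffle the disulfide bonds of secreted proteins, included no call and no gene at an unadjusted p under 0.05 in edgeR, DESeq2 or limma voom. Pdia3, which works with Calr and Canx, had 431 to 485 CPM in Het and 441 to 549 CPM in WT (log2 fold change -0.13 ± 0.08). Pdia4 had 338 to 413 CPM in Het and 353 to 399 CPM in WT (0.01 ± 0.07), and Pdia6 had 422 to 505 CPM in Het and 385 to 487 CPM in WT (0.15 ± 0.09). The 95% interval for Pdia4, a fold of 0.904 to 1.12, was among the narrowest of the members.

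Both degradation genes had lower means in Het without passing in edgeR, DESeq2 or limma voom. At an unadjusted p under 0.05, 2, 1 and 1 were lower, where edgeR had 19.4% of all tested genes, higher or lower. Herpud1 ran from 276 to 351 CPM in Het with a median of 309 CPM, and at 481, 477, 414, 356 and 285 CPM in WT 1 to 5. WT 1 to 4 exceeded all Het libraries and WT 5 lay at the low end of the Het range (log2 fold change -0.37 ± 0.12, adjusted p = 0.0928). It passed without WT 5, at -0.48 (adjusted p = 0.0137), and was -0.18 ± 0.11 without WT 1 and WT 2 (adjusted p = 0.466). Edem1, a lectin that passes misfolded glycoproteins on for degradation, had 248 to 419 CPM in Het with a median of 315 CPM, and 762, 637, 370, 373 and 252 CPM in WT 1 to 5. WT 1 and WT 2 stood far above the other libraries of both groups, and the log2 fold change of -0.53 ± 0.25 (adjusted p = 0.257) was -0.0014 ± 0.17 without them (adjusted p = 0.999). WT 1 and WT 2 were also the highest libraries for Hspa5, Herpud1 and Chac1. As leaving out the highest libraries lowers the WT mean by construction, the fit without them is no test of these differences. Edem1 was singled out after its values were seen.

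The sensors and their factor Xbp1 showed no call in edgeR, DESeq2 or limma voom, where 1 gene, Xbp1, was lower at an unadjusted p under 0.05. Xbp1 had 75.1 to 89.3 CPM in Het with a median of 84.3 CPM, and 101, 93.2, 89.8, 88.5 and 93.1 CPM in WT 1 to 5. Of the 6 Het libraries 5 lay below every WT library, and Het 4, at 89.3 CPM, lay between WT 4 and WT 3 (log2 fold change -0.17 ± 0.07, adjusted p = 0.228). Atf6 had 28.0 to 38.1 CPM in Het and 26.2 to 36.8 CPM in WT (0.06 ± 0.12). Ern1 had 4.36 to 7.86 CPM in Het and 4.37 to 11.0 CPM in WT (-0.27 ± 0.24), and Eif2ak3 had 4.06 to 7.28 CPM in Het and 2.38 to 5.98 CPM in WT (0.28 ± 0.23). The intervals of Ern1 and Eif2ak3 were wide, at folds of 0.584 to 1.18 and 0.862 to 1.71, and Eif2ak3 shares 485 exonic bases with an unprocessed transcript on the other strand.

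**Figure D4:**
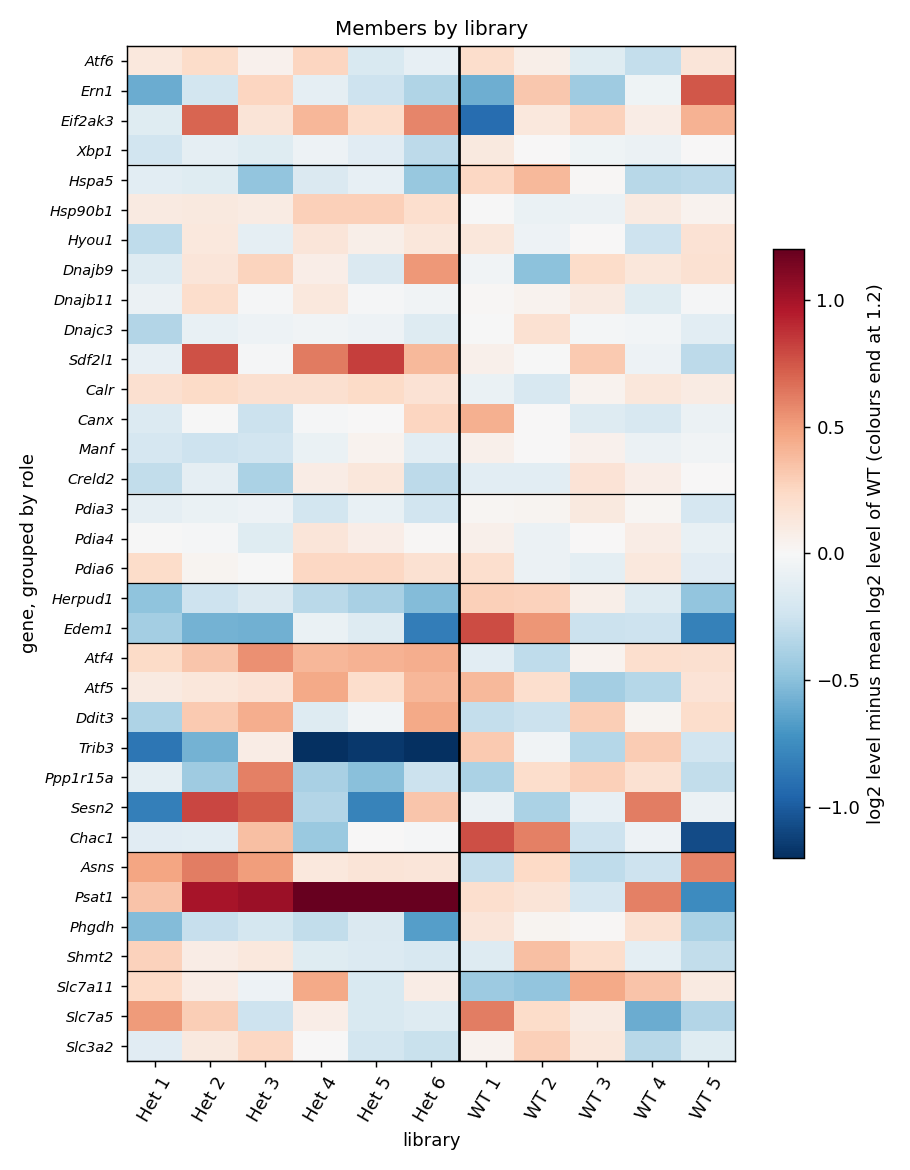
Log2 level of each of the 34 genes in each library minus its mean log2 level in WT, with genes grouped by role and colours ending at 1.2. Psat1 is high in Het 2 to 6 and Atf4 moderately high in all Het libraries, while WT 1 and WT 2 stand out for Edem1, Hspa5 and Chac1.

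Genes of the same pathways outside the 34 were described from 8 lists, with 126 of 128 genes tested. Of these 4 rose and 2 fell, 4.76%, against 5.03% of all tested genes, and their median log2 fold change was 0.02. Among 20 other ER folding enzymes 2 rose (10%), and 10% did not overlap between groups, against 4.61% of all tested genes. Pdia5, a further disulfide isomerase, had 22.5 to 33.9 CPM in Het with a median of 27.6 CPM, and 18.7, 19.5, 15.6, 16.4 and 15.4 CPM in WT 1 to 5. Every Het library exceeded every WT library (log2 fold change 0.68 ± 0.13, adjusted p = 0.00544), and Pdia5 was the 1 pathway gene that also passed with the sex score, at 0.87 ± 0.16 (adjusted p = 0.0242; in the Xist-positive libraries 0.86 ± 0.16, adjusted p = 0.0830). Fkbp11, a prolyl isomerase of secretory cells, had 85.1 to 107 CPM in Het with a median of 93.5 CPM, and 64.9, 54.0, 66.4, 84.9 and 58.5 CPM in WT 1 to 5. Its groups did not overlap, though the lowest Het library and WT 4 nearly met (0.52 ± 0.11, adjusted p = 0.00990; 0.44 ± 0.16, adjusted p = 0.439 in the Xist-positive libraries). Without WT 1 and WT 2 Pdia5 passed, at 0.79 ± 0.14 (adjusted p = 0.00772), and Fkbp11 did not, at 0.43 ± 0.11 (adjusted p = 0.0569).

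Among 23 other Atf4 target genes 2 rose, 1 fell and 20 did not pass, with a median log2 fold change of 0.10. The share called was 13%, against 5.03% of all tested genes, and 13% did not overlap between groups, against 4.61%. The list was drawn up with earlier results of these data known. Aldh1l2, a mitochondrial enzyme of folate metabolism, had 28.6 to 35.9 CPM in Het with a median of 31.3 CPM, and 19.7, 18.8, 20.7, 23.8 and 20.5 CPM in WT 1 to 5. All Het libraries exceeded all WT libraries by a clear gap (0.62 ± 0.10, adjusted p = 0.00202; 0.65 ± 0.15, adjusted p = 0.142 in the Xist-positive libraries). Slc1a5, an importer of glutamine and other neutral amino acids, had 23.1 to 28.5 CPM in Het and 13.9 to 19.7 CPM in WT (0.47 ± 0.12, adjusted p = 0.0314), a call lost without WT 2, WT 4, Het 2 or Het 3, with adjusted p of 0.0547 to 0.0768. Slc6a9, a glycine transporter, had 20.8 to 29.6 CPM in Het and 32.3 to 46.4 CPM in WT, with no overlap and in the other direction (-0.59 ± 0.12, adjusted p = 0.00927). In the Xist-positive libraries the log2 fold changes were 0.50 ± 0.18 for Slc1a5 and -0.50 ± 0.18 for Slc6a9 (adjusted p = 0.422 and 0.420). Without WT 1 and WT 2 Aldh1l2 passed, at 0.56 ± 0.12 (adjusted p = 0.0187), while Slc1a5, at 0.48 ± 0.14, and Slc6a9, at -0.48 ± 0.13, did not (adjusted p = 0.0867 and 0.0677).

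Among 24 translocation and secretory genes of the kind induced by Xbp1, 1 fell and none rose. It was Sec11c, a catalytic subunit of signal peptidase, with 36.5 to 41.1 CPM in Het and 45.0 to 59.2 CPM in WT (-0.43 ± 0.09, adjusted p = 0.0119; -0.36 ± 0.15, adjusted p = 0.498 in the Xist-positive libraries; -0.55 ± 0.09, adjusted p = 0.00374 without WT 1 and WT 2). At an unadjusted p under 0.05, 3 of these 24 were higher and 1 lower, and DESeq2 gave the same single call. Of the 126 pathway genes 23.8% were at an unadjusted p under 0.05 in edgeR, against 19.4% of all tested genes. No gene of the other 5 lists passed in edgeR. At an unadjusted p under 0.05 these lists held 1 higher and 6 lower of 20 degradation genes, 1 lower of 8 sensors and proteases, 2 lower of 11 eIF2 kinases and subunits, 1 lower of 13 aminoacyl-tRNA synthetases and 2 higher of 7 death genes. DESeq2 called 1 higher and 1 lower degradation gene, 1 lower sensor or protease and 1 higher death gene, and none of the eIF2 and synthetase genes. Over all tested genes it called 8.78%, against 5.03% in edgeR.

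The gene with the smallest p in each of these 5 lists was as follows. Selenos, an ER membrane selenoprotein of the degradation machinery, averaged 209 ± 10.6 CPM in Het (SD, n = 6) and 176 ± 11.6 CPM in WT (SD, n = 5), higher by 0.25 ± 0.07 on the log2 scale without passing (adjusted p = 0.0590). The log2 fold change of Mbtps1, the site-1 protease that cuts Atf6, was -0.37 ± 0.11 (adjusted p = 0.0692). WT 1 and WT 2 were its highest libraries, at 165 and 181 CPM, and without them it was -0.20 ± 0.10 (adjusted p = 0.357). That of Eif2b4, a subunit of the exchange factor for eIF2, was -0.26 ± 0.11 (adjusted p = 0.197). For Yars, the tyrosyl-tRNA synthetase, the value was -0.25 ± 0.09 (adjusted p = 0.155). Tnfrsf10b, the death receptor induced by Chop, averaged 130 ± 9.59 CPM in Het (SD, n = 6) and 88.6 ± 28.4 CPM in WT (SD, n = 5), at 0.55 ± 0.17 (adjusted p = 0.0800). WT 1 and WT 2, at 58.4 and 57.8 CPM, lay far below the other WT libraries, at 104 to 118 CPM, and without them the log2 fold change was 0.25 ± 0.09 (adjusted p = 0.159). None of these 5 passed in edgeR. DESeq2, which called 8.78% of all tested genes, called Selenos, Mbtps1 and Tnfrsf10b (adjusted p = 0.00903, 0.0330 and 0.0292).

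**Figure D5:**
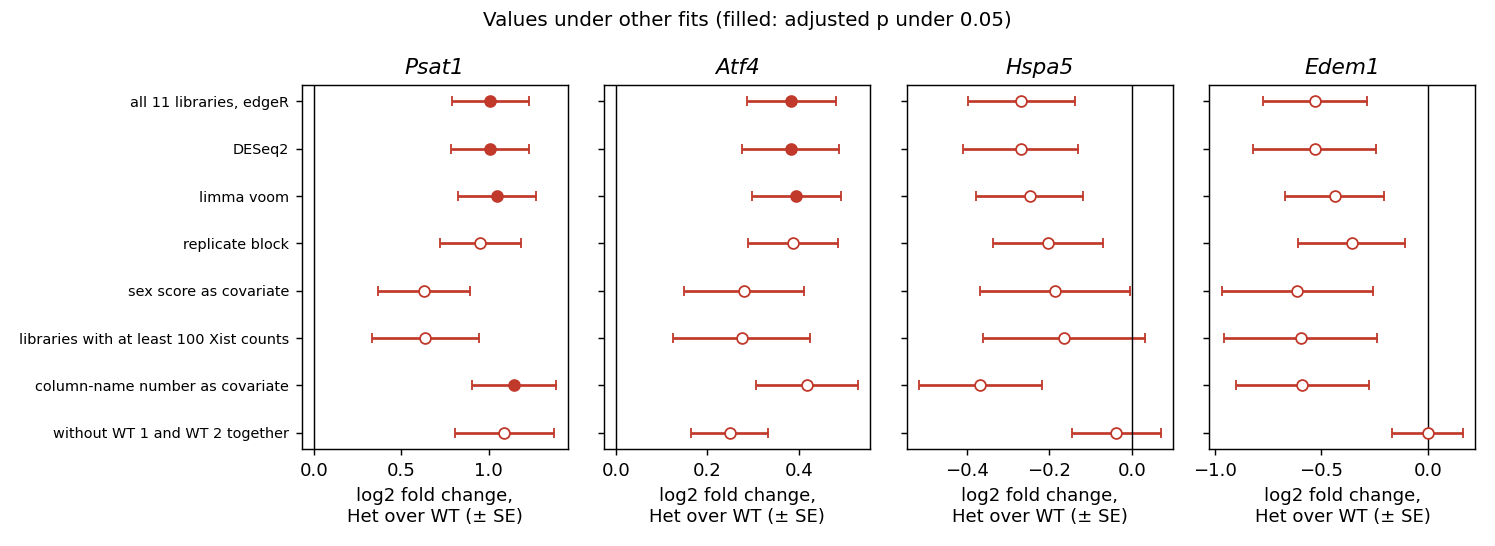
Log2 fold change of Het over WT with its SE for Psat1, Atf4, Hspa5 and Edem1 under 8 fits, with filled points past an adjusted p of 0.05. Psat1 and Atf4 keep positive values throughout and lose the call in several fits, and Hspa5 and Edem1 lie at -0.04 and about 0 without WT 1 and WT 2.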

How the data were processed

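Aortic arch RNA of 6 Het and 5 WT mice was sequenced from unstranded libraries pooled over 2 runs, per the labels' protocols. The submitters' processing notes name STAR 2.5.2a, GRCm38, edgeR, limma and DESeq2; no source used here names the counting tool. The deposited counts are whole reads per gene with no normalization (48709 mouse genes; 24 spike-in or transgene rows with 4 to 11 counts per library were left out), and the filtered count table repeats 19629 of these rows unchanged. The deposited signal table, named by the authors as TMM-normalized CPM, sums to 966683 to 1026471 per library and served only for gene names and an alternative test. Every per-sample column was mapped to its sample.

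Genes were kept by filterByExpr (minimum count 10, minimum total 15) and scaled by TMM factors of 0.979 to 1.031. Het over WT was tested with edgeR 4.0.16 in R 4.3.3 (robust glmQLFit and glmQLFTest, no covariates). The Benjamini-Hochberg adjustment ran over all 14757 genes at 0.05. On simulated counts the test recovered 38.8% of 1.5-fold, 74.6% of 2-fold and 93.9% of 4-fold changes, with 8 false among 146 calls. A gene that did not pass can therefore still differ. The SE is the log2 fold change divided by the square root of F, and 95% intervals use edgeR's degrees of freedom. The common biological coefficient of variation was 0.215. CPM uses the TMM factors, except for Xist and Ddx3y. Lengths and positions are from GENCODE M21 (GRCm38), matched for 48349 IDs; near-identical copies share at least 95% identity over 300 bases.

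Alternatives were RLE and upper-quartile scaling, other filters, DESeq2 1.42.0, limma 3.58.1 voom and trend (pseudocounts of 1 and 0.5 on the deposited signal), a replicate block, a threshold of 0.1, a sex score (mean log2 CPM of 4 Y-linked genes minus that of Xist), the libraries with at least 100 Xist counts, the number 6 or 7 in the column names, and libraries left out. The genes and lists were chosen with earlier results of these data known. All 34 genes are named. Values per library are given for those past the threshold, the next 6 by p, and Hspa5, Atf4, Ddit3 and Xbp1. Each pathway list is represented by its called genes or, with none, its smallest p.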

Additional observations from a re-analysis of the deposited data

Results flagged for a closer look

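Within each group of libraries, a gene was marked when its highest or lowest library stood apart from the rest by more than Dixon's 95% limit. Of 68 such group values for the 34 genes, 3 were marked, and chance marks about 1 in 20. Ppp1r15a, a subunit of the eIF2 phosphatase, had 29.7 CPM in Het 3, and the other Het libraries had 13.8 to 18 CPM. Canx, the calnexin gene, had 356 CPM in WT 1, and the other WT libraries had 232 to 266 CPM. Sesn2, sestrin 2, had 3.60 CPM in WT 4, and the other WT libraries had 1.81 to 2.25 CPM. None of the 3 genes passed the test of Het against WT.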

How the results depend on the processing

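All genes called numbered 742, and 2 of the 34 members. RLE and upper-quartile scaling, both filters, limma voom and limma trend with either pseudocount left the member count at 2, as did DESeq2 with 1295 genes in all. At an adjusted p under 0.1 the counts were 1290 genes and 4 members, Herpud1 and Phgdh being added. The sex score gave 123 genes and 0 members (2 higher and 1 lower at an unadjusted p under 0.05), the Xist-positive libraries 34 and 0 (0 and 1), and the fit without WT 1 and WT 2 432 and 0 (4 and 1), all in edgeR. The column-name number, which the labels do not explain, gave 415 and 1 (Psat1). With a replicate block 332 genes and 0 members passed (Psat1 0.95, adjusted p = 0.0731); the numbers are not said to pair animals, same-numbered deviations correlated at -0.249 to 0.0488, and 2 of 5 Het libraries correlated best with their own number. Leaving out 1 library gave 458 (without WT 2) to 853 (without WT 4) genes and 1 to 4 members. Over the 24 alternatives with values, Psat1 ranged from 0.63 to 1.18 and passed in 20, and Atf4 from 0.25 to 0.43 and passed in 11. The members' median log2 fold change stayed between -0.0448 and 0.0367. Pathway calls, 6 in the test as given, were checked under the same alternatives after seeing the data: 11 with DESeq2, 3 with the block, 4 without WT 1 and WT 2 (Pdia5, Aldh1l2 and Sec11c of the 6, with 1 other), 1 under the sex score and, among Xist-positive libraries, 0 (7 higher and 5 lower at an unadjusted p under 0.05). No called single gene changed sign.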
